A study of Homo sapiens with 3 samples.

Results

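MicroRNA genes read on an expression array of MDA-MB-231 cells are described here through the probe sets that gave a clear signal. Members were chosen by their symbol and their measured level: all probe sets whose annotated symbol was MIR followed by digits, without host gene transcripts, and whose highest value on the 3 arrays reached 5.0 on the log2 scale. The rule kept 247 probe sets of 205 microRNA genes out of 1226 probe sets of 1062 microRNA genes. Over the whole array, 16098 of 53617 probe sets carried a gene name, and 7394 of the named ones met the same level. Since the level rule used the measured values, levels and differences of the members are given as descriptions, with no test.

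MDA-MB-231 is a long-established human cell line from triple-negative breast cancer, in which estrogen receptor, progesterone receptor and HER2 are low or absent. Cells were kept for 72 h with 1% DMSO as the solvent control, with 10 µM CFX, or with 10 µM Mt-CFX. Ciprofloxacin, named in the series title, is a fluoroquinolone antibiotic, and Mt-CFX appears in the labels by its code name alone. For the treated dishes no DMSO content is labelled, and an effect of the solvent can therefore be part of any difference from the control. Each group was 1 array (n = 1), which leaves the values without replicate error or p-value, and the spread between repeats is unknown.

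MicroRNAs are short RNAs that pair through their seed, the bases near the 5′ end, with messenger RNAs and lower the output of those messages. They are cut from long primary transcripts, first by Drosha with DGCR8 into a hairpin in the nucleus and then by Dicer in the cytoplasm, and the mature strand is loaded into an Argonaute protein. Many lie close together on a shared primary transcript or inside an intron of a host gene. The array read labelled cDNA made from whole transcripts of total RNA, so a value for a microRNA gene stands for RNA over its hairpin locus, such as primary transcript or precursor, and not for the mature microRNA. In RNA of a whole culture, fewer cells with a transcript and less of it per cell cannot be told apart. A value also depends on how well its own probes bind, so differences are read between arrays for the same probe set, and a level of a gene beside that of another says nothing of which transcript is more abundant.

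The mature sequences of the members that the comparisons turn on are printed 5′ to 3′ from RefSeq on GRCh38.p14, with the seed, bases 2 to 8, in capitals. A hairpin was found in the RefSeq table for 169 of the 205 member genes. The family of miR-15 and miR-16 is shown first because it holds the member with the highest difference after Mt-CFX. Its members are known to act on cyclins and other cell cycle messages. The marked seed of miR-503 ends in G, and those of miR-424 and miR-15a end in A, so miR-503 does not share the full seed. The hairpin of MIR503 lies at chrX:134546328-134546398 and that of MIR424 at chrX:134546614-134546711, both on the minus strand, and MIR15A lies at chr13:50049119-50049201, also on the minus strand.
hsa-miR-503-5p: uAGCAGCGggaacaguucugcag
hsa-miR-424-5p: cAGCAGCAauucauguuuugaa
hsa-miR-15a-5p: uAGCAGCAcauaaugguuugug

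The family of miR-99 and miR-100 and the seed shared by miR-21 and miR-590 are shown because a member of each was higher after Mt-CFX while its seed partner was flat or moved less. MIR100 lies at chr11:122152229-122152308 on the minus strand and MIR99B at chr19:51692612-51692681 on the plus strand. MIR21 lies at chr17:59841266-59841337 and MIR590 at chr7:74191198-74191294, both on the plus strand.
hsa-miR-100-5p: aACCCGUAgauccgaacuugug
hsa-miR-99b-5p: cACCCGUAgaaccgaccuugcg
hsa-miR-21-5p: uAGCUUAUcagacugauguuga
hsa-miR-590-5p: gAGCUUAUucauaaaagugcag

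The next sequences belong to members at the other end or to members with the same seed and opposite differences. MIR924 had the lowest difference after Mt-CFX and lies at chr18:39622123-39622175 on the minus strand. MIR4279 had the lowest difference after CFX and lies at chr5:31936102-31936159 on the minus strand, and MIR4516, which had the highest, lies at chr16:2133119-2133204 on the plus strand. MIR3620 at chr1:228097263-228097341 and MIR1587 at chrX:39837561-39837613, both on the plus strand, carry the same seed.
hsa-miR-924: aGAGUCUUgugaugucuugc
hsa-miR-4279: cUCUCCUCccggcuuc
hsa-miR-4516: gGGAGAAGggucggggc
hsa-miR-3620-5p: gUGGGCUGggcugggcugggcc
hsa-miR-1587: uUGGGCUGggcuggguuggg

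Families whose members stayed within 1.5-fold on all 3 arrays are represented by miR-221 and miR-222, known to act on the cell cycle inhibitor p27, and by the family of miR-25, miR-32 and miR-92. MIR221 lies at chrX:45746157-45746266 and MIR222 at chrX:45747015-45747124, both on the minus strand.
hsa-miR-221-3p: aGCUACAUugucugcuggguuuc
hsa-miR-222-3p: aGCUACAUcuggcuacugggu
hsa-miR-25-3p: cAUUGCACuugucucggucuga
hsa-miR-32-5p: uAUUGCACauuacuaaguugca
hsa-miR-92b-3p: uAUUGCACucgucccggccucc

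The line and the arrays were checked briefly before the members were read. Of 8 genes known for this mesenchymal-like line, 6 had a named probe set, and AXL, a receptor tyrosine kinase, stood at 10.97 on the control array, 10.93 with CFX and 10.86 with Mt-CFX. VIM, the intermediate filament vimentin, was at 9.17 on every array, CD44 at 7.65, 7.65 and 7.31, and S100A4 at 4.24, 3.96 and 4.30. Of 10 luminal or epithelial breast genes, 8 had a probe set. ESR1, the estrogen receptor, lay between 3.81 and 3.92 and PGR, the progesterone receptor, was at 2.39 on every array, whereas the keratin KRT18 was at 8.36. GATA3, EPCAM, KRT8 and KRT19 also stood above 5.0 on all arrays, so the luminal list was not low as a whole. The summed log2 level of the line's own 6 markers ran from 50.6 to 50.8 over the arrays. That of the 8 luminal genes ran from 41.3 to 41.8. The sums cover unlike genes and numbers of genes, so each is read between arrays only. The endothelial genes PECAM1 and VWF were at 3.45 or lower, and CD68, the only leukocyte gene with a probe set, lay between 9.13 and 9.37, highest on the control array. The part of these markers in the results was not tested.

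Most members sat close to the level rule. Of the 247 probe sets, 155 had their highest array between 5 and 6, 60 between 6 and 7, 23 between 7 and 8, and 9 above 8. The median over the members was 5.59 on the control array, 5.63 with CFX and 5.60 with Mt-CFX. All 3 arrays reached 5.0 for 194 probe sets, and 53 reached it on only 1 or 2 arrays. Just inside the rule stood MIR3160-1 with a highest value of 5.0004 and MIR3621 with 5.0037, and just outside stood MIR4314 with 4.9988 and MIR4642 with 4.9965.

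The probe sets with the highest readings, which include probe effects, are given by their values across arrays. MIR3689A read 10.50 on the control array, 10.21 with CFX and 10.41 with Mt-CFX, and MIR4737 read 10.25, 10.40 and 10.75 in the same order. MIR4737 was thus highest with Mt-CFX, by 0.50 over the control.

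Member hairpins were rich in G and C, a feature the rule did not use. The median GC content was 58.7% over the 169 members with a hairpin, with quartiles of 50.9% and 65.4%, and 46.1% over 705 microRNA genes under the level, with quartiles of 40.4% and 54.0%. The share of microRNA genes with clear signal was 5.20% of 173 genes under 40% GC, 9.97% of 301 genes from 40% to 50%, 21.5% of 246 genes from 50% to 60%, and 77 of the 154 genes at 60% or more. Across these 874 genes the highest level and the GC content had a Pearson correlation of 0.56 and a Spearman correlation of 0.59. This is a description across genes that share the same 3 arrays and are not independent, and probe binding also varies with base composition. Median hairpin length was 81 bases in members and 83 in the others. Members past 1.5-fold in any comparison had a median GC of 60% (15 genes) and the other members 58.6% (154 genes).

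**Figure D1:**
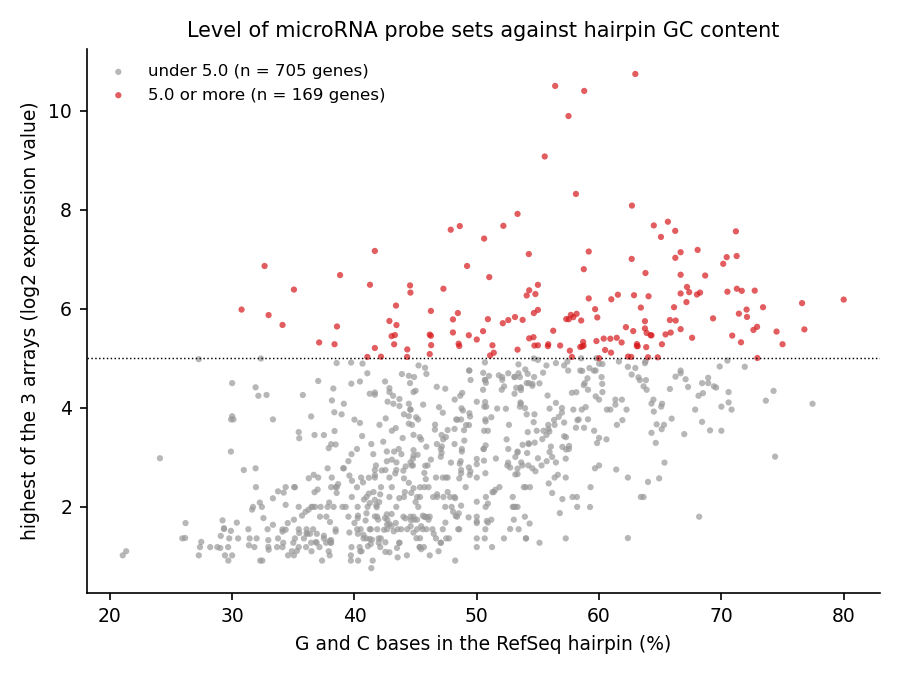
Each point is a microRNA gene with a RefSeq hairpin; the x axis gives the GC content of the hairpin in percent and the y axis the highest of its 3 log2 expression values, with members (5.0 or more, dotted line) in red. Clear signal was present for 5.20% of the genes under 40% GC and for 77 of the 154 at 60% or more.

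Exact ties shaped many small differences. Of the members, 48 probe sets (19.4%) had the same value on all 3 arrays, against 37.5% of all named probe sets with clear signal. Of these 48 members, 39 also shared that value with a named probe set of another gene (81.2%). Among all 2774 named probe sets with clear signal and equal values on all 3 arrays, the share was 64.6%. By contrast, 0 of the other 199 members shared its values with another gene, beside 0.0433% of 4620 named probe sets with unequal values. For example, MIR99B was at 6.13 on all arrays, and 12 other genes had exactly the same 3 values. MIR503, MIR424, MIR21 and MIR100 shared their values with 0 other genes. A flat value in these data is therefore often a value held in common by several genes.

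Members were counted as apart when 2 arrays differed at least 1.5-fold, a log2 difference of 0.585. With CFX over control 11 members were apart (4.45%), 7 higher and 4 lower, against 0.284% of all named probe sets with clear signal, 0.162% higher and 0.122% lower. With Mt-CFX over control 27 members were apart (10.9%), 11 higher and 16 lower, against a background of 3.62%, 1.99% higher and 1.64% lower. With Mt-CFX over CFX 12 members were apart (4.86%), 8 higher and 4 lower, against 2.66%, 1.45% higher and 1.22% lower. In all 3 comparisons the members' share was above the background. These shares rest on 1 array per group, and comparisons that share an array are not independent of each other.

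Counted by gene, the directions with Mt-CFX were closer to even. The 16 lower probe sets came from 9 genes, because MIR877 entered with 6 probe sets of identical values and MIR4454 with 3, and the 11 higher ones came from 11 genes. With 1 value per gene, 10 of 205 genes were apart for CFX over control (4.88%), 19 with Mt-CFX against the control (9.27%) and 10 between the compounds (4.88%). No share per gene over all named genes is given, and the background above is per probe set, so these shares are not read against it.

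Shares apart were also read by level, beside protein-coding and all named probe sets. MicroRNA probe sets under the level rule were apart in 5.41% of 979 cases with CFX over control, in 4.80% with Mt-CFX over control and in 4.39% with Mt-CFX over CFX. Among probe sets with a highest array between 5 and 6, the shares in the same order were 4.52%, 10.3% and 4.52% of 155 microRNA probe sets. For 2368 protein-coding ones they were 0.211%, 1.69% and 1.14%. The 10.3% counts probe sets of MIR877 with identical values separately. A highest array in this range also admits probe sets that are under 5.0 on another array. Of the 33 members past 1.5-fold in any comparison, only 13 reached 5.0 on all 3 arrays. Where all 3 arrays reached 5.0, 5 of 194 members were apart for CFX over control (2.58%), 10 with Mt-CFX over the control (5.15%) and 5 between the compounds (2.58%), against 0.127%, 2.98% and 2.24% of 7109 named probe sets. Between the compounds the members' share was thus near that of all named probe sets. The members' median difference was 0.00 in each comparison, as it was over all named probe sets with clear signal. Their standard deviation over members was 0.27 with CFX over control, 0.34 with Mt-CFX against the control and 0.30 between the compounds, and that over all named probe sets 0.10, 0.24 and 0.21. The part of probe number and probe composition in these shares was not tested.

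**Figure D2:**
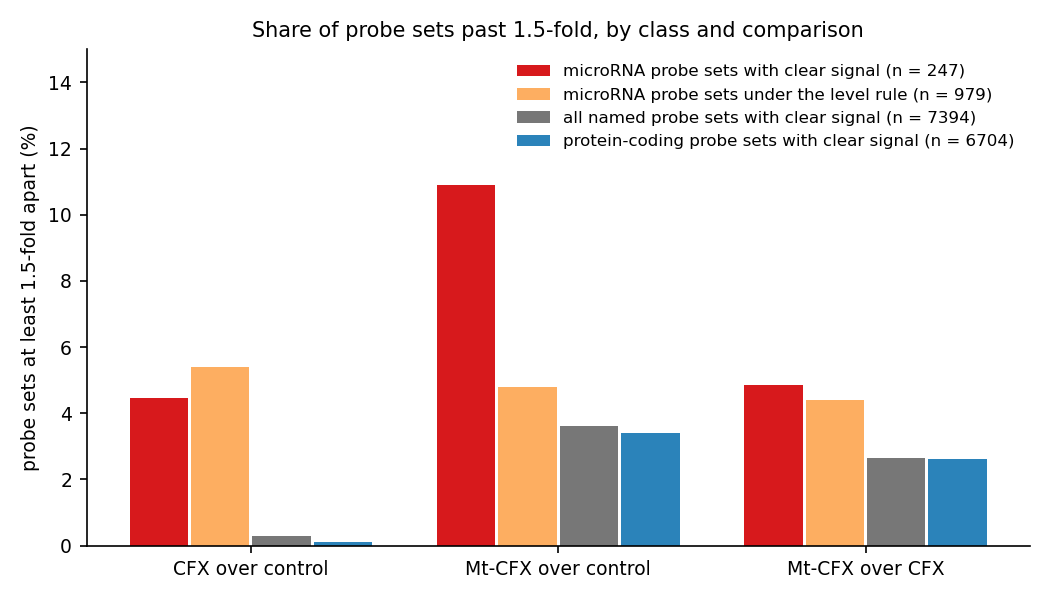
Bars give the percentage of probe sets at least 1.5-fold apart (y axis) in each of the 3 comparisons (x axis) for 4 classes of probe sets, with the class sizes in the key. The red bars, the members, stand at 4.45%, 10.9% and 4.86%, above the grey bars of all named probe sets at 0.284%, 3.62% and 2.66%.

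With Mt-CFX the MIR503 and MIR424 pair was higher than on both other arrays. MIR503 read 5.46 on the control array, 5.53 with CFX and 7.16 with Mt-CFX. It was 3.24-fold higher with Mt-CFX than in the control and 3.09-fold higher than with CFX, the highest difference of any member in either comparison. MIR424, which lies beside it on the X chromosome, read 5.82, 5.82 and 6.64 and was 1.77-fold higher than in the control. MIR15A, which carries the seed of MIR424, read 4.94, 4.94 and 5.03 and thus differed by 0.09 at most.

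MIR100 and MIR21 were also higher with Mt-CFX than in the control, while with CFX they were lower within 1.5-fold, by 0.26 and 0.42. MIR100, known to act on the message of the growth kinase mTOR, read 4.84 on the control array, 4.59 with CFX and 5.95 with Mt-CFX, 2.16-fold higher with Mt-CFX than in the control. Only the Mt-CFX array reached 5.0 for this gene. MIR21, an abundant microRNA in many tumours, read 6.88, 6.46 and 7.67. It was 1.73-fold higher with Mt-CFX than in the control and 2.32-fold higher than with CFX. MIR590, with the same seed, read 6.01, 6.23 and 6.39, a step of 0.38 that stayed under 1.5-fold.

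MIR23B lay just under the size counted. It read 4.97 on the control array, 5.26 with CFX and 5.55 with Mt-CFX, a difference of 0.58 for Mt-CFX over control. MIR5047 and MIR4522 were apart only for Mt-CFX over control, with 7.66, 7.79 and 8.30 for MIR5047 and 5.78, 5.97 and 6.40 for MIR4522. Both were lowest on the control array and highest with Mt-CFX.

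A further set of members was lowest on the control array and higher with either compound. MIR3620 read 4.38 on the control array, 5.03 with CFX and 5.46 with Mt-CFX, with differences of 0.66 and 1.08. MIR3934 read 4.81, 5.48 and 5.80, and MIR548AL, of the large primate-specific miR-548 family, read 5.11, 5.76 and 6.15. MIR548C, of the same family, read 4.44, 5.09 and 5.17. Because both comparisons use the same control array, a low value on that array alone enters both differences.

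Other miR-548 members were lower rather than higher. MIR548O2 read 5.10 on the control array, 4.55 with CFX and 4.43 with Mt-CFX, and MIR548AN read 5.28, 5.10 and 4.68. The family thus had counted members in both directions for Mt-CFX over control, 2 higher and 2 lower.

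The lowest difference with Mt-CFX was that of MIR924, which read 6.06 on the control array, 6.02 with CFX and 4.71 with Mt-CFX. It was 2.55-fold lower with Mt-CFX than in the control and 2.48-fold lower than with CFX. MIR3621 read 5.0037, 4.90 and 4.11, and MIR1587 read 5.21, 5.40 and 4.62. All 3 genes were low on the Mt-CFX array only. MIR1587 and MIR3620, which share a seed, had differences of -0.59 and 1.08 for Mt-CFX over control.

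MIR877, MIR4454 and MIR4740 were lowest with Mt-CFX and intermediate with CFX. MIR877, a mirtron released by splicing of ABCF1, read 5.55 on the control array, 5.38 with CFX and 4.89 with Mt-CFX on 6 probe sets with identical values, while another probe set of the gene read 5.46, 5.43 and 5.06. MIR4454 read 6.88, 6.34 and 6.13 on 3 identical probe sets. MIR4740 read 6.33, 5.66 and 5.58, and was 1.59-fold lower with CFX and 1.67-fold lower with Mt-CFX.

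With CFX the highest difference was on MIR4516 and the lowest on MIR4279, and each gene has a pair of probe sets. The probe sets of MIR4516 read 4.75 and 4.72 on the control array, 5.83 and 5.50 with CFX, and 5.30 and 5.49 with Mt-CFX. Both were thus higher with CFX, by 1.08 and 0.78. Those of MIR4279 read 5.17 and 5.24 on the control array, 3.79 and 4.76 with CFX, and 4.41 and 5.10 with Mt-CFX, so that the differences with CFX were -1.37 and -0.48 and only the first was counted.

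MIR3135A, MIR4502 and MIR539 were also apart with CFX, with their highest or lowest value on that array. MIR3135A read 5.24 on the control array, 6.01 with CFX and 5.57 with Mt-CFX, which is also 0.33 over the control. MIR4502 read 6.09, 5.32 and 6.10, and MIR539, of the large imprinted cluster on chromosome 14, read 5.98, 5.28 and 5.89. MIR4502 and MIR539 were lower with CFX by 1.70-fold and 1.63-fold, and both were within 0.10 of the control on the Mt-CFX array.

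The compounds were set against each other at the same dose of 10 µM and the same time of 72 h, as a single pair. On the Mt-CFX array MIR503, MIR100, MIR21 and MIR424 were higher than on the CFX array by 1.63, 1.37, 1.21 and 0.82 on the log2 scale. MIR4502, MIR4279, MIR3160-1 and MIR539 were higher by 0.78, 0.62, 0.62 and 0.61. MIR924, MIR3621, MIR1587 and MIR3135B were lower, with differences of -1.31, -0.80, -0.78 and -0.65. For MIR3160-1 the values were 4.81 on the control array, 4.38 with CFX and 5.0004 with Mt-CFX, so the CFX array was the low one. The counted MIR4279 probe set read 3.79 with CFX and 4.41 with Mt-CFX, both under 5.0. The other MIR4279 probe set differed by 0.34 and was not counted. For MIR3135B the counted probe set read 4.95, 5.20 and 4.55, while 4 identical probe sets of the gene read 4.90, 5.20 and 4.82. With 1 array per compound no interval of these differences can be given, and the members within 1.5-fold are not shown to be alike.

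**Figure D3:**
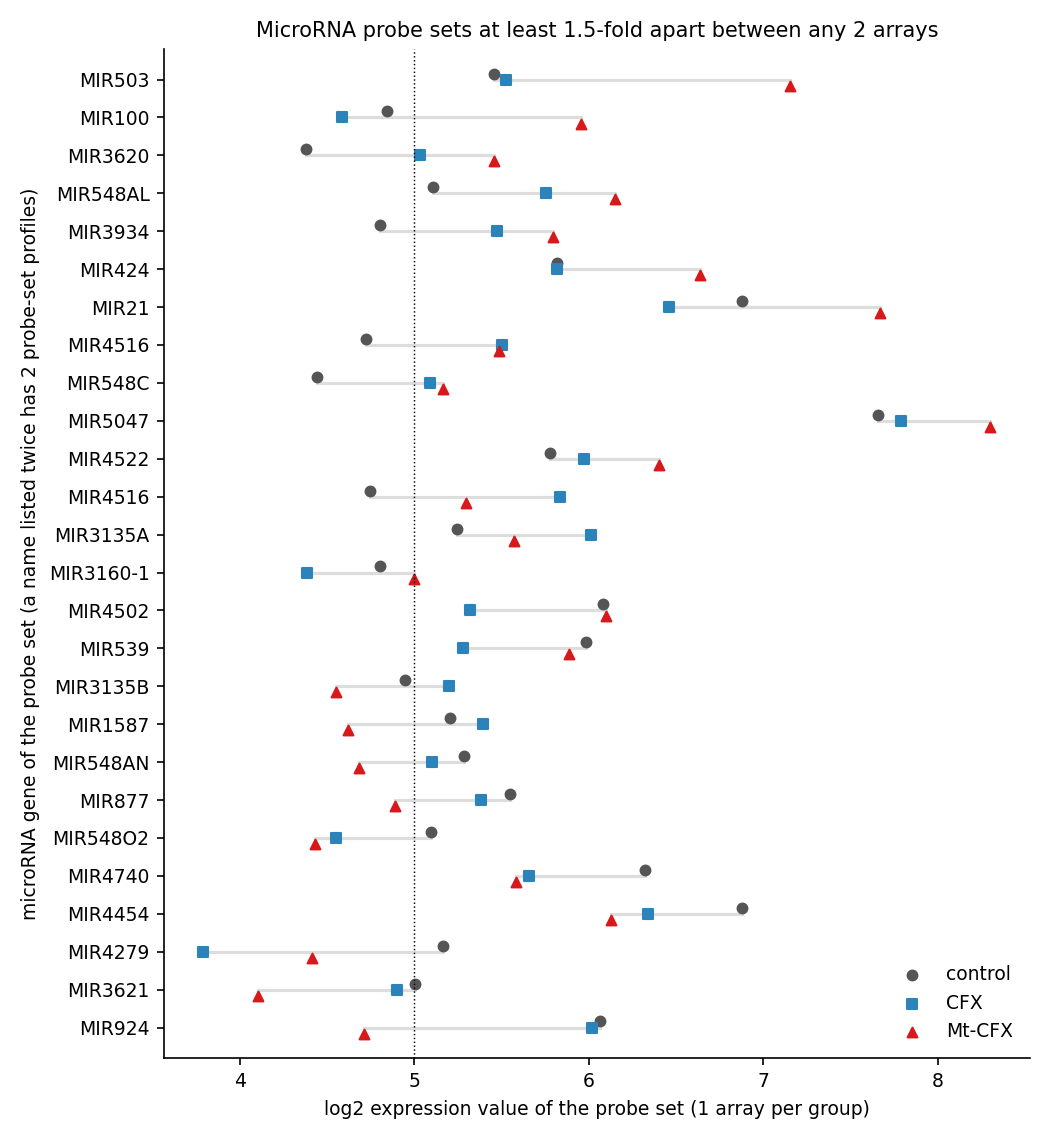
Each row is a microRNA probe set at least 1.5-fold apart between any pair of arrays, 1 row for each set of identical values, and the x axis gives its log2 expression value with control (circle), CFX (square) and Mt-CFX (triangle); the dotted line marks 5.0. MIR503 at 7.16, MIR21 at 7.67 and MIR100 at 5.95 stand apart to the right on the Mt-CFX array, and MIR924 at 4.71 to the left.

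Genes with several probe sets gave a measure of how far readings annotated to the same gene differ. Positions and strands of the probe sets were not used, so probe sets of a gene may read different RNAs. Over 19 genes with several probe sets among the members whose values differed, the gap between their differences had a median of 0.06 for CFX over control and 0.07 for each of the other comparisons. Among members the largest gaps were 0.89 for MIR4279 with CFX over control, 0.61 for MIR4279 with Mt-CFX over control, and 0.52 for MIR4516 with Mt-CFX over CFX. A difference of 0.585 on a single probe set was thus within the largest gap between member probe sets of the same gene in 2 of the 3 comparisons. Probe sets under the level rule could lie further apart: for MIR642A the member differed by -0.01 and its other probe set, at 3.08 on the control array, by -0.69 for Mt-CFX over control. These gaps cover probes on the same arrays and not the variation between cultures.

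MicroRNA genes with a hairpin in the RefSeq table and at most 10 kb apart on the same strand were read as clusters. Of 55 clusters with at least 2 such genes on the array, 25 held a member and 7 held at least 2 members. In 4 of them all such genes with a probe set were members. Genes without a hairpin there, such as MIR93 at 4.36 on all arrays, were placed in no cluster. In the MIR424 and MIR503 cluster the remaining genes had low values that did not follow the pair. MIR450A1 read 1.29, 1.01 and 1.15, MIR450B was at 1.18 on all arrays and MIR542 was at 1.99 on all arrays.

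Inside MIR100HG, the transcript that also holds a let-7 gene and MIR125B1, all 3 microRNA genes were highest with Mt-CFX. MIR125B1 read 4.24 on the control array, 3.99 with CFX and 4.87 with Mt-CFX, which is under the level rule. MIRLET7A2, whose symbol falls outside the rule, read 5.71, 5.95 and 6.29. Their differences for Mt-CFX over control were 0.63 and 0.59, beside 1.11 for MIR100. With CFX, MIR100 and MIR125B1 were both 0.26 lower than the control and MIRLET7A2 was 0.25 higher.

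In the MIR23B cluster, MIR27B read 4.24, 4.24 and 4.38 and MIR24-1 read 2.10, 1.90 and 1.90. In the related cluster on chromosome 19, the member MIR24-2 read 6.01, 5.99 and 6.30, MIR27A read 4.17, 4.26 and 4.48, and MIR23A was at 3.16 on all arrays. MIR24-2 and MIR27A were both highest with Mt-CFX, by 0.29 and 0.31.

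The 5 MIR3689 members of the cluster on chromosome 9 were all lowest with CFX. Their differences for CFX over control ran from -0.29 for MIR3689A to -0.52 for MIR3689D1, and those for Mt-CFX over control from -0.05 to -0.27. MIR3689F, also a member but without a hairpin in the table, was placed in no cluster and lay outside these ranges. Its probe sets differed by -0.01 and -0.15 for CFX over control, and by 0.03 and 0.07 for Mt-CFX over control. None passed 1.5-fold. These genes are near copies: the mature 5p sequences of MIR3689A and MIR3689B are printed here because they are the same, so signal of these genes may not be separable by gene.
hsa-miR-3689a-5p: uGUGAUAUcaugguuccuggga
hsa-miR-3689b-5p: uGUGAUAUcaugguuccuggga

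Among the other clustered members, those of the miR-221 and miR-25 families printed above differed little between arrays. MIR221 read 6.31, 6.40 and 6.40, and MIR222 read 5.65, 5.65 and 5.79. MIR25 was at 5.29 on all arrays and MIR106B read 5.07, 5.07 and 5.11. MIR32 and MIR92B, which share the seed of MIR25, read 5.61, 5.61 and 5.64 for MIR32 and 5.28 on all arrays for MIR92B. Further clustered members stayed within 1.5-fold with larger steps: MIR30E read 4.60, 5.05 and 4.70, MIR29C read 4.79, 4.81 and 5.18, and MIR3677 read 6.34, 5.98 and 6.36. MIR30E was highest and MIR3677 lowest with CFX, and MIR29C was highest with Mt-CFX. The largest cluster, on chromosome 14, had 40 genes with a hairpin in the table on the array, of which only MIR539 and MIR1185-2 were members.

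**Figure D4:**
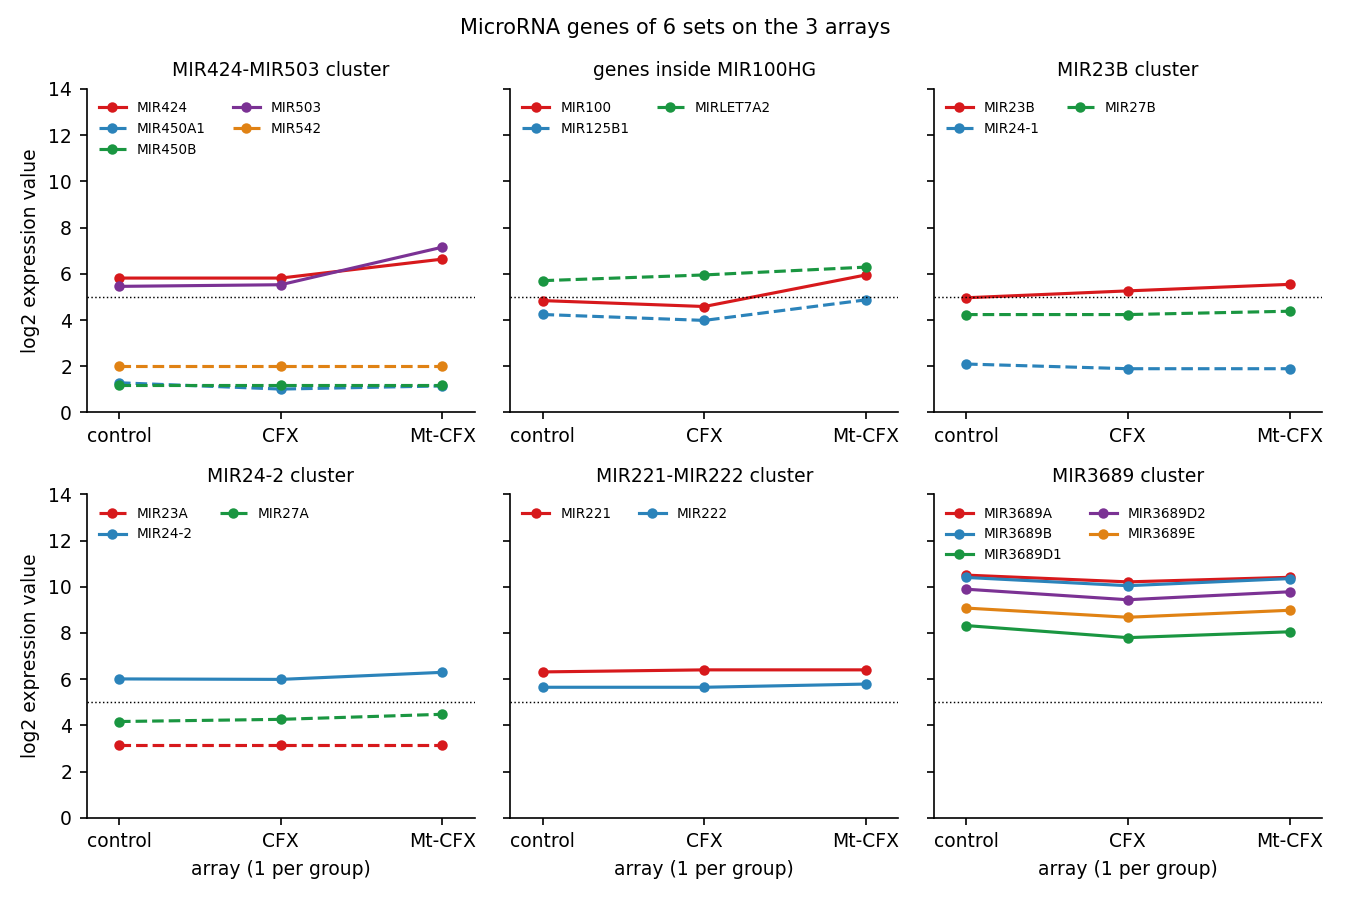
Log2 expression values (y axis) of microRNA genes on the control, CFX and Mt-CFX arrays (x axis) in 6 sets of neighbouring genes; solid lines are members, dashed lines are genes outside the member rule, and the dotted line marks 5.0. MIR503, MIR424 and MIR100 are higher on the Mt-CFX array, and the MIR3689 genes are lowest on the CFX array.

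Of the 169 members with a hairpin in the table, 109 lay inside a gene on the same strand and 60 did not. For 67 of them, in 63 hosts, the host had a named probe set. The value of the host was equal on both arrays compared in 46 pairs with CFX against the control, in 39 with Mt-CFX against the control and in 40 between the compounds. Where host and microRNA both differed from 0, they had the same sign in 7 of 14 pairs, 15 of 24 pairs (62.5%) and 8 of 19 pairs. In the same order, the host was past 1.5-fold in 0, 1 and 1 of the 67 pairs and the microRNA gene in 1, 5 and 5. Of all named probe sets of any level, 0.652%, 2.34% and 1.83% were past it. In 0 pairs were both past 1.5-fold in any comparison, and with so few hosts past it this count says little about the pairs.

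The 3 microRNA genes past 1.5-fold higher with Mt-CFX whose host was measured, MIR21, MIR100 and MIR3620, lay in hosts that read nearly the same on every array. VMP1, an autophagy gene that overlaps MIR21, read 10.33 on the control array and 10.34 on both others. MIR100HG was at 5.07 on all arrays, a value that 8 other genes shared exactly. ARF1, a small GTPase of the Golgi that holds MIR3620, was at 9.06 on all arrays, and AOPEP, an aminopeptidase gene that holds MIR23B, was at 5.45. MIR503HG, which holds MIR503, had no named probe set and was not analysed here.

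The 2 members past 1.5-fold lower whose host was measured had a host that was lower too, by less. MIR924HG read 5.28 on the control array, 5.28 with CFX and 5.06 with Mt-CFX, a difference of -0.22 beside -1.35 for MIR924. LRRC26 read 5.24, 5.25 and 4.84, a difference of -0.41 beside -0.90 for MIR3621. MIR604, with 7.11, 6.90 and 6.81, and its host SVIL, the actin-binding protein supervillin, with 6.67, 6.57 and 6.19, were also lower together.

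Other hosts were lower beside a microRNA gene that was nearly level or higher. TRIB2, a pseudokinase gene, read 6.63 on the control array, 6.32 with CFX and 5.55 with Mt-CFX, and MIR3125 inside it read 5.88, 5.84 and 5.84. The mean over the 2 probe sets of TRIB2 differed by -0.54 for Mt-CFX over control. MCM7, a subunit of the replicative helicase, read 8.69, 8.75 and 8.35, while MIR106B and MIR25 in its intron differed by at most 0.04. MIR1908 went the other way from FADS1, a fatty acid desaturase, with 5.94, 5.98 and 6.19 for the microRNA gene and 7.17, 7.08 and 6.82 for the host.

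**Figure D5:**
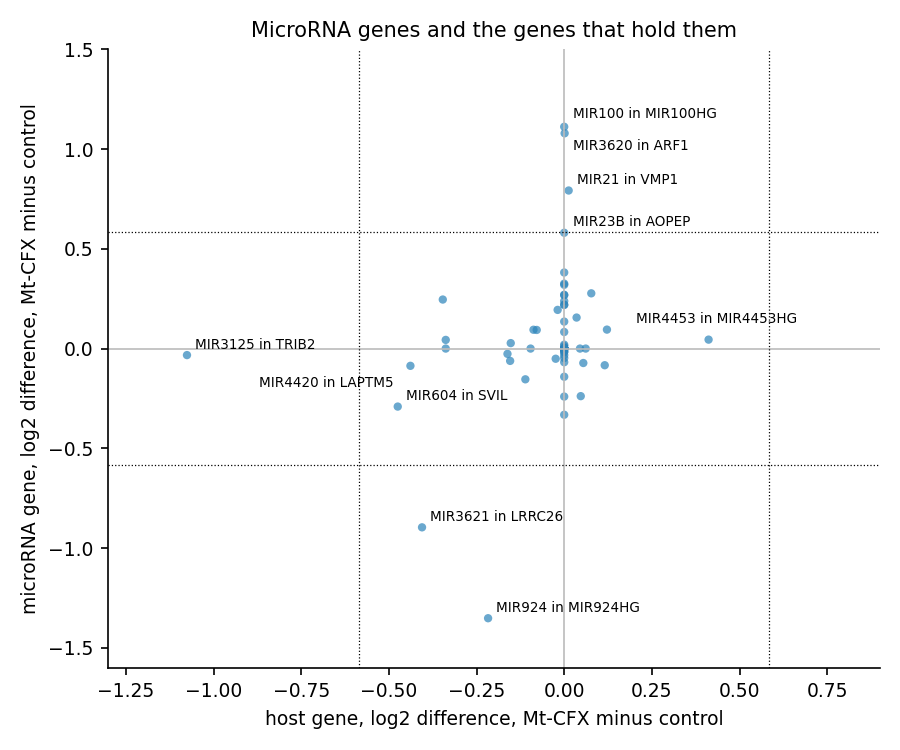
Each point is a member microRNA gene inside a host gene with a named probe set (67 pairs); the x axis gives the host's and the y axis the microRNA gene's log2 difference, Mt-CFX minus control, and dotted lines mark 1.5-fold. MIR100, MIR3620 and MIR21 lie high at a host difference near 0, and TRIB2 lies far left at a MIR3125 difference of -0.03.

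The genes that make or use microRNAs were read from a list. Of 36 listed genes, 21 had a named probe set, and 0 of the 21 passed 1.5-fold in any comparison, with a median difference of 0.00 in each. Over all named probe sets of any level, 0.652% passed with CFX over control, 2.34% with Mt-CFX over control and 1.83% with Mt-CFX over CFX, with a like median, so a count of 0 in a list of this size is near the background. DGCR8, the partner of Drosha, was at 6.02 on all arrays, a value that 18 other genes shared exactly. XPO5, which exports hairpins from the nucleus, was at 7.42 on all arrays, and TARBP2, a partner of Dicer, at 5.07. The lowest difference for Mt-CFX over control was that of TNRC6A, a silencing partner of Argonaute, which read 6.45, 6.33 and 6.0. The highest was that of DDX5, an RNA helicase of the Drosha complex, which read 10.00, 10.05 and 10.14. DROSHA, DICER1 and AGO2 had no named probe set and were not analysed here. Of 26 host transcripts named MIR followed by digits and HG, 0 passed 1.5-fold, again near that background, and 8 had clear signal. MIR22HG read 4.69, 4.69 and 5.09.

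Of 57 preset microRNA genes chosen for their known roles in breast cancer or in the responses studied, 47 had a probe set. Of these, 14 met the level and are among the members above. The miR-200 family, which maintains the epithelial state, was under the level rule, with 2.39 for MIR200A, 3.39 for MIR200B and 2.28 for MIR200C on the control array. MIR31 was at 3.76, MIR155 at 3.26 and MIR34A, a target of p53, at 3.53 on all arrays. Among those that met the level, MIR210, a target of the hypoxia factor HIF, read 6.35, 6.17 and 6.37, MIR33B, which lies in the lipid regulator SREBF1, read 5.55, 5.63 and 5.55, and MIR612 read 5.29, 4.84 and 5.33. MIR1204, near MYC and PVT1, read 5.90, 6.34 and 6.35, a difference of 0.44 with CFX and 0.45 with Mt-CFX. MIR17 and its cluster had no named probe set and were not analysed here. The host transcript MIR17HG was at 4.08 on all arrays.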

How the data were processed

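Total RNA was extracted with Trizol and turned into labelled whole-transcript sense cDNA, per the labels' protocols, and 1 array was run for each of the 3 groups. The deposited values are log2 expression values of probe sets. Per the submitters' processing notes, the authors ran RMA within Affymetrix Expression Console. Versions, annotation release and genome build were not given in the sources used here. RMA equalises the distribution of probe values over the arrays, so a difference in total RNA between cultures is not visible. The values ran from 0.0868 to 13.1, and the number of arrays limits their precision.

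Gene names came from the platform's annotation, and all 16098 named ones matched the RefSeq gene table (GRCh38.p14) by gene ID. Hairpins, mature sequences and coordinates came from RefSeq tables on GRCh38.p14. Hosts are genes whose span holds the microRNA gene on the same strand, with the host probe set of highest mean. Differences of log2 values were counted at 1.5-fold, with no test. The counting was tested on simulated data. Named genes were all members past 1.5-fold, the 10 highest and 10 lowest differences of each comparison, the 10 highest control levels, clustered members, neighbours of the level rule, their hosts, and 57 preset microRNA genes, and not each of these is printed. MIR99B, MIR590, MIR32, MIR92B, MIR604, MIR642A, MIR29C, MIR3677, MIR3125, TRIB2, SVIL and the let-7 genes outside this rule were chosen after their values were seen. The members and lists were chosen with earlier results of these data known. Alternatives were other folds, level rules, lowess re-centring with a span of 0.3, and values per gene or per distinct profile. Computation used statsmodels 0.14.6, pandas 2.3.3, numpy 2.4.6 and matplotlib 3.10.9 in Python 3.11.15.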

Additional observations from a re-analysis of the deposited data

How the results depend on the processing

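The counts moved with the fold and the level rule. The count of 11 for CFX over control became 2 at 2-fold and 50 at a smaller fold than 1.5, both of 247 probe sets. It became 4 of 92 with the highest array at 6.0 and 64 of 1226 with no minimum. The count of 27 for Mt-CFX over control became 5, 58, 11 and 74, over the same numbers of probe sets in the same order. The count of 12 for Mt-CFX over CFX likewise became 4, 51, 5 and 55. Counts under different level rules are thus over unlike numbers of probe sets. With no minimum, the shares over 16098 named probe sets were 0.652% for CFX over control, 2.34% for Mt-CFX over control and 1.83% for Mt-CFX over CFX. With all 3 arrays at 5.0, an alternative chosen after seeing the data, the counts were 5, 10 and 5 of 194. Under the other alternatives the counts stayed within 1.5 times. They were 16, 34 and 18 of 345 with the highest array at 4.5. With the mean of the arrays at 5.0 they were 8, 22 and 8 of 218. Per gene they were 10, 19 and 10 of 205, and with 1 probe set per distinct profile 11, 20 and 12 of 214. No share over all named probe sets is given for the other folds, the 6.0 rule or these alternatives. Re-centring by lowess gave 11, 27 and 12 again and moved no member by more than 0.03. The median difference of 0.00 became a mean of -0.0253 for CFX over control, -0.0127 for Mt-CFX over control and 0.0127 for Mt-CFX over CFX, and stayed at 0.00 under the other alternatives run. The share of hosts and microRNA genes with the same sign was 62.5% of 24 pairs with the host probe set of highest mean and 62.5% with the mean of its probe sets, and 66.7% of 21 pairs with hosts at 5.0 or more. The cause of the moves was not tested. No array could be left out, since each group has 1. No paired analysis was possible because each group holds a single array and the results come from no test.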

Other observations

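Of the 979 microRNA probe sets under the level rule, 85 were past 1.5-fold in at least 1 comparison (8.68%), against 2.02% of 8704 named probe sets and 1.14% of 5990 protein-coding ones under the same level, and 13.4% of the 247 members. The genes given are examples chosen from these and from the preset list after their values were seen. MIR29A, known to act on collagen and other matrix messages, read 2.59 on the control array, 4.13 with CFX and 4.26 with Mt-CFX, while MIR29B1, its neighbour, was at 1.80 on all arrays. MIR3189, which lies in the stress-induced cytokine gene GDF15, read 3.00, 3.79 and 4.31. MIR550A1 read 4.36, 3.53 and 3.12, lowest with Mt-CFX. MIR548A1 read 1.78, 2.79 and 0.90 on a pair of identical probe sets. MIR1206, near MYC, read 3.76, 3.76 and 4.40.

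Of 10 let-7 genes with a probe set, which fall outside the member rule by symbol, MIRLET7F1 read 2.59, 2.08 and 3.11 and MIRLET7A1, its neighbour, read 4.04, 3.39 and 4.0. Both were lowest with CFX. MIRLET7D, of the same cluster, read 5.86, 6.05 and 6.05, and MIRLET7A3 read 5.67, 5.46 and 5.46. MIRLET7C, MIRLET7E, MIRLET7G and MIRLET7I had equal values on all 3 arrays.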
